A study of Mus musculus with 8 samples.

Results

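The 9 genes described here encode transcription factors that set and maintain hepatocyte identity: Hnf4a, Foxa1, Foxa2, Foxa3, Cebpa, Cebpb, Onecut1, Prox1 and Hhex. They were chosen by name, though with earlier results of these data known. All 9 are among the 21049 gene symbols measured, and all 9 are among the 9228 whose average over the 8 samples reached 1 FPKM (fragments scaled by gene length and library size), so no member was lost to that minimum. All 9 are protein-coding; in GENCODE M21 on GRCm38 they lie at chr2:163506808-163572910 (Hnf4a), chr12:57540628-57546916 (Foxa1), chr2:148042877-148046969 (Foxa2), chr7:19013284-19023538 (Foxa3), chr7:35119293-35121928 (Cebpa), chr2:167688915-167690418 (Cebpb), chr9:74861921-74891781 (Onecut1), chr1:190118035-190170714 (Prox1) and chr19:37434810-37440731 (Hhex). RNA sequencing covered 4 control samples, labelled wild type and given saline, and 4 samples given alcohol, also labelled wild type. The labels give liver as tissue, hepatocyte as cell type and AML12, a mouse hepatocyte line, as cell line, while the design text speaks of C57BL/6 mice, an inbred strain, with an alcohol-fed group. The sources used here do not give age, sex, alcohol dose or duration. They also do not say whether the 8 samples stem from separate animals or cultures, so p-values reflect only sample-to-sample spread, which may be technical.

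As background, hepatocytes keep their character through a small set of liver-enriched factors that bind one another's genes and, together, the genes of plasma proteins, lipid transport and nitrogen disposal. HNF4A is the orphan nuclear receptor at the centre of that network. FOXA factors open closed chromatin for other factors, C/EBP alpha holds metabolic genes on and restrains growth, and C/EBP beta takes over many of the same sites in acute stress. HNF6 (Onecut1), PROX1 and HHEX act early in liver budding and bile duct choice and persist in adult hepatocytes.

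The samples held hepatocyte transcripts and also those of other liver cells. All 8 hepatocyte markers (Alb, Apoa1, Apoc3, Ttr, Serpinc1, Tat, Cps1 and Asgr1) lay above the minimum, and their summed level, mostly Alb, was 56176 to 64881 FPKM in controls and 52289 to 61464 FPKM with alcohol. Of the 8, Tat and Cps1 rose, and Apoa1, Apoc3 and Ttr fell. All 10 endothelial markers, led in level by Clec4g, rose with alcohol, and their sum went from 22.0 to 35.1 FPKM in controls to 86.7 to 110 FPKM. Of 9 tested stellate and fibroblast markers 5 rose, Dcn the most abundant, and 2 fell (sums 71.3 to 128 and 168 to 233 FPKM). Of 9 tested macrophage markers none rose and 1, Cd68, fell (sums 53.2 to 162 and 66.6 to 112 FPKM), and 6 of 8 cholangiocyte markers had a mean under 1 FPKM, with Cftr at or near 0. Sums in controls and with alcohol were 2.97 to 6.66 and 0.842 to 2.20 FPKM for lymphocytes (no gene reached the minimum), 179 to 362 and 122 to 196 FPKM for red blood cells (Alas2 fell), 10.2 to 31.0 and 17.6 to 30.9 FPKM for adipocytes (Fabp4 and Cidec rose, Cfd fell) and 12.1 to 23.3 and 6.59 to 10.6 FPKM for pancreas (Cela1 fell). Beside these marker counts, 44.2% of all tested genes were higher and 13.0% lower. Tissue RNA cannot tell fewer cells of a type from less RNA per cell. Library totals recovered from the values were 33872595 to 34789814 reads in controls and 37132631 to 38407511 reads with alcohol, and every member had at least 48 reads in every library.

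Of the 9 factors, Prox1 and Foxa3 rose with alcohol and Cebpa fell, while Hnf4a, Foxa1, Foxa2, Cebpb, Onecut1 and Hhex did not pass the test. The test was limma on log2(FPKM + 1), and a gene passed with a Benjamini-Hochberg adjusted p under 0.05 over all tested genes. Of all tested genes 57.2% passed by the same rule, 44.2% higher and 13.0% lower, so 2 higher and 1 lower of 9 is not a larger share than the background. The groups did not overlap for 2 of the 9, Prox1 and Cebpa, against 50.2% of all tested genes (39.5% higher and 10.7% lower). The median log2 change of the members was 0.20, beside 0.24 over all tested genes. That general shift depends on scaling: it was -0.0027 with median-of-ratios scaling, -0.0083 with quantile normalization and 0.40 on the TPM scale. Of the genes called, 77.2% were higher, against 49.4% and 49.1% with the first 2 of those settings, which centre the samples by construction.

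**Figure D1:**
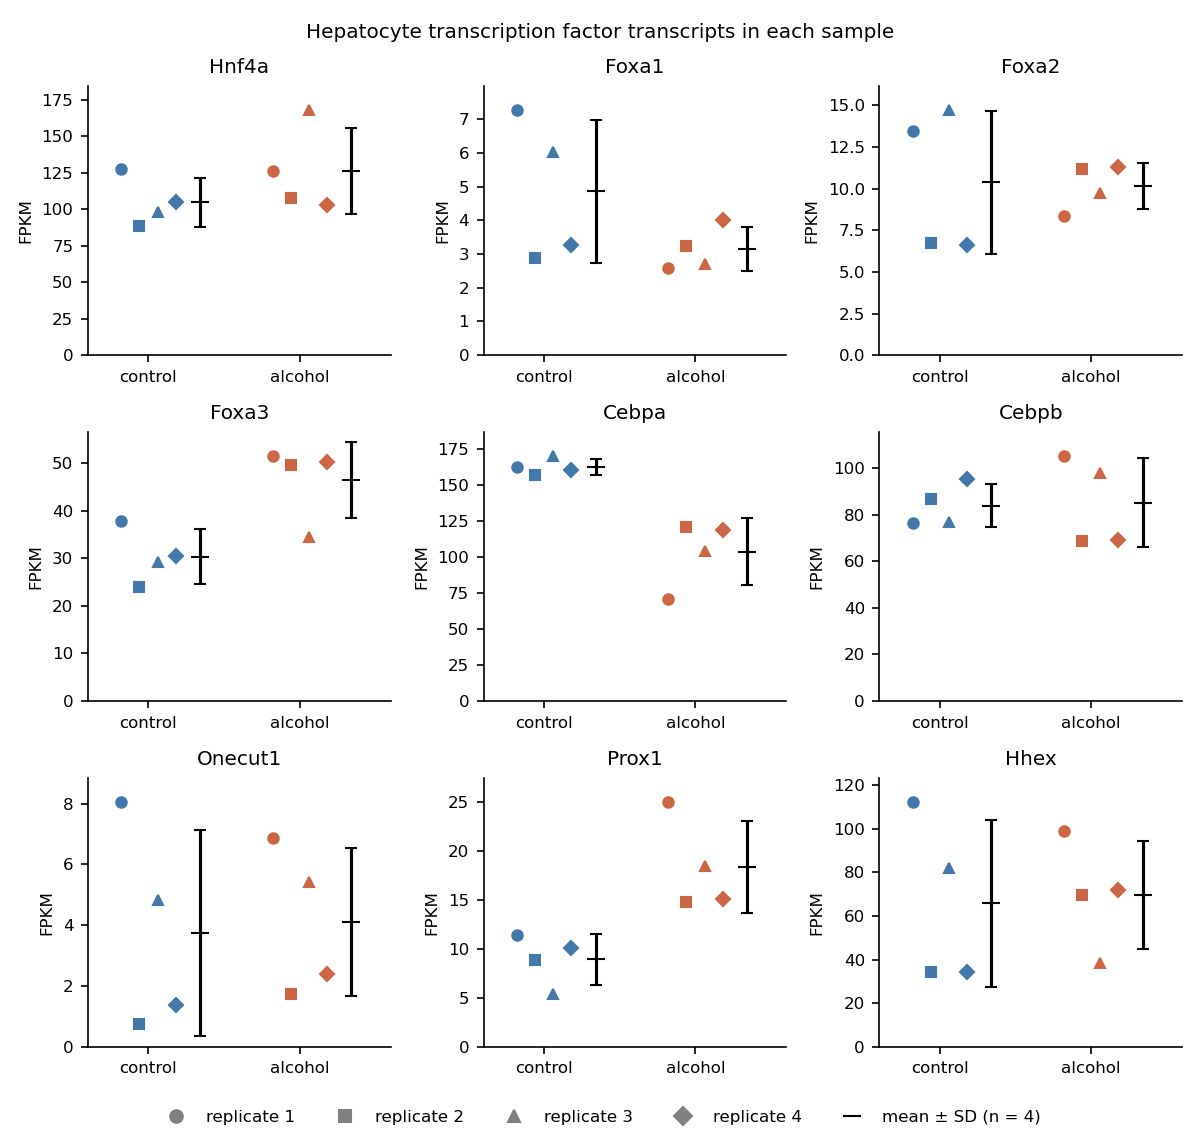
Level in FPKM (y axis, linear, 1 panel per gene) of each of the 9 factors in every sample, with control samples in blue, alcohol samples in orange, marker shape for the replicate number and a bar for the mean ± SD of 4 samples. The alcohol samples of Cebpa (70.8 to 121 FPKM) all lie below the controls and those of Prox1 (14.8 to 25.03 FPKM) all above them, while Onecut1 and Hhex spread widely within both groups.

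Cebpa, the C/EBP factor of the resting hepatocyte, had the smallest ratio of highest to lowest control of the 9. Its control level was 162, 157, 170 and 160 FPKM in replicates 1 to 4, and its alcohol level was 70.8, 121, 104 and 119 FPKM. Every alcohol sample lay below every control, and alcohol replicate 1 lay lowest. The mean fell from 162 ± 5.38 to 103 ± 23.1 FPKM (SD, n = 4 per group), a log2 change of -0.67 ± 0.16 (SE; limma adjusted p = 0.00455). The exact 2-sided permutation p was 0.0286, the smallest that 4 against 4 can give. This call held in all 17 alternative analyses (limma adjusted p 0.000976 to 0.0167).

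Cebpb, the C/EBP factor of acute stress, stood at 76.4, 87.0, 77.1 and 95.5 FPKM in controls and 105, 69.0, 97.9 and 69.1 FPKM with alcohol. Alcohol replicates 1 and 3 lay above all controls and replicates 2 and 4 below all of them. The means were 84.0 ± 9.08 and 85.3 ± 19.0 FPKM, and the log2 difference was 0.00 with a 95% interval of -0.35 to 0.35 (limma adjusted p = 0.996). The 2 samples highest in Cebpb, alcohol replicates 1 and 3, were the 2 lowest in Cebpa. The ratio of Cebpb to Cebpa, which scaling of whole libraries cannot move, was 0.471, 0.555, 0.454 and 0.595 in controls and 1.49, 0.571, 0.943 and 0.583 with alcohol. Alcohol replicates 1 and 3 exceeded every control, and replicates 2 and 4 lay inside the control range. Cebpb outnumbered Cebpa per unit of length only in alcohol replicate 1. That sample also held the most S100a8 and S100a9, the alarmins of neutrophils, at 13.7 and 18.4 FPKM, against at most 1.84 and 2.99 FPKM in any control. The summed level of the neutrophil and monocyte list was 19.1 to 42.6 FPKM in controls and 22.8 to 60.7 FPKM with alcohol, and none of its 3 tested genes passed. Alcohol replicate 1 also held the most Cxcr2, a neutrophil chemokine receptor, at 0.343 FPKM against 0.0259 to 0.0473 FPKM in the other 7 samples. It was the only one with any Ly6g (0.0279 FPKM, a value near 0), while Mpo was 0 there. Cxcr2, Ly6g and Mpo all lay under the minimum of 1 FPKM and were not tested. The remaining genes of the list, Lyz2, Itgam, Ly6c2, Ccr2 and Elane, were each highest in another sample. The part of neutrophils in the ratio was not tested. The mean log2 difference of the ratio was 0.68, and 0.40 without alcohol replicate 1.

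Among the FOXA factors, Foxa3, the most abundant of the 3 in every sample, rose, and its close relatives Foxa1 and Foxa2 did not pass. Foxa3 stood at 37.9, 24.0, 29.2 and 30.4 FPKM in controls and 51.4, 49.6, 34.6 and 50.2 FPKM with alcohol. Alcohol replicate 3 was the only one of its group inside the control range. Mean Foxa3 rose from 30.4 ± 5.75 to 46.4 ± 7.96 FPKM, a log2 change of 0.60 ± 0.16 (SE; limma adjusted p = 0.00933, exact permutation p = 0.0571). Median-of-ratios scaling brought it to 0.30, where Foxa3 no longer passed (limma adjusted p = 0.124).

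Foxa1 stood at 7.25, 2.88, 6.01 and 3.26 FPKM in controls and 2.60, 3.23, 2.71 and 4.02 FPKM with alcohol. Control replicates 1 and 3 lay above every alcohol sample, and control replicates 2 and 4 lay among them. The log2 difference was -0.44 ± 0.23 (SE; 95% interval -0.95 to 0.07, limma adjusted p = 0.123). Foxa1 was called lower in 3 alternatives, which were quantile normalization (-0.76, limma adjusted p = 0.0173), median-of-ratios scaling (-0.67, adjusted p = 0.0274) and leaving out control replicate 2 (-0.61, adjusted p = 0.0373). Foxa2 stood at 13.5, 6.73, 14.7 and 6.64 FPKM in controls and 8.38, 11.2, 9.73 and 11.3 FPKM with alcohol, so that all 4 alcohol samples lay between the lower and the upper pair of controls. Its log2 difference was 0.04 ± 0.23 (95% interval -0.48 to 0.56, limma adjusted p = 0.888).

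Although neither Foxa1 nor Foxa2 passed, their ratio separated the groups. The ratio of Foxa1 to Foxa2 was 0.539, 0.428, 0.410 and 0.491 in controls and 0.310, 0.289, 0.278 and 0.357 with alcohol. Every alcohol value lay below every control value. This ratio was chosen after its values were seen and has no test. Among single tested genes 50.2% did not overlap, and the share of ratios between genes that do so was not computed. Foxa1 made up 8.09% to 12.4% of the summed FPKM of the 3 FOXA genes in controls and 4.16% to 6.13% with alcohol. These shares did not overlap either, but they draw on the same Foxa1 values as the ratio. The share of Foxa3 was 58.5% to 75.4% in controls and 73.5% to 82.4% with alcohol, where the groups overlapped.

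**Figure D2:**
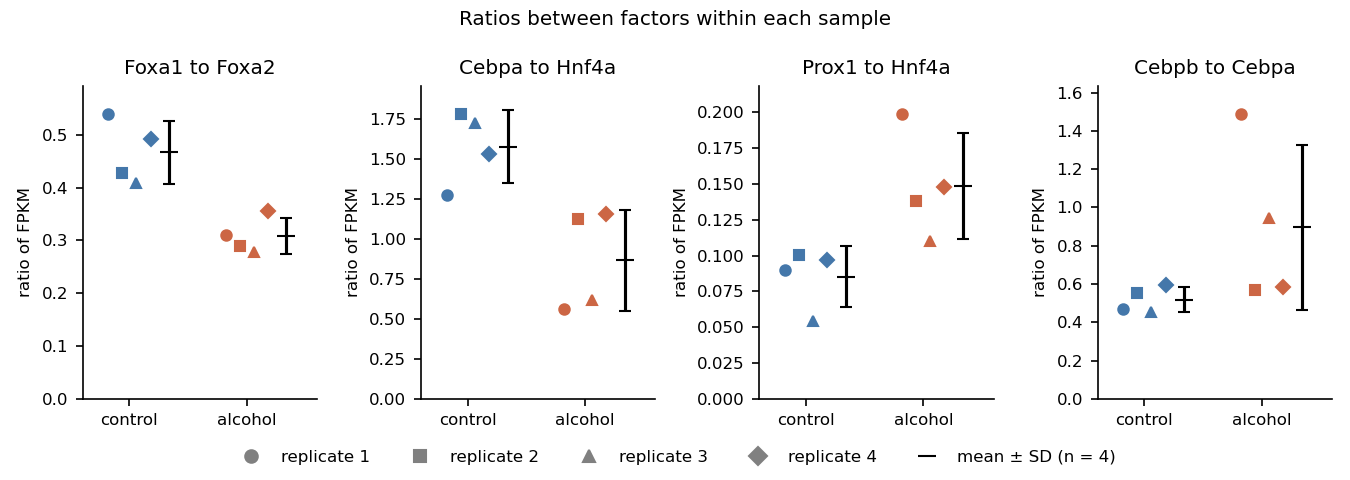
Ratio of FPKM values within each sample (y axis, linear, no unit) for 4 pairs of factors, with control samples in blue, alcohol samples in orange, marker shape for the replicate number and a bar for the mean ± SD of 4 samples. The Foxa1 to Foxa2 ratio is at most 0.357 with alcohol and at least 0.410 in controls, and the Cebpb to Cebpa ratio is high in alcohol replicates 1 and 3.

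Prox1, a homeobox factor of hepatocytes and of lymphatic endothelium, had the largest log2 change of the 9. It stood at 11.5, 8.84, 5.35 and 10.1 FPKM in controls and 25.03, 14.8, 18.5 and 15.2 FPKM with alcohol, with no overlap. The mean rose from 8.95 ± 2.62 to 18.4 ± 4.73 FPKM, 2.05 times the control mean, with a log2 change of 0.98 ± 0.22 (SE; limma adjusted p = 0.00312, exact permutation p = 0.0286). This call, too, held in all 17 alternative analyses, with log2 changes of 0.70 to 1.15. Some markers of lymphatic endothelium moved with it. Of 4 tested 3 rose, where 44.2% of all tested genes were higher. Of these 3, Lyve1 is also on the endothelial list and Reln on the stellate list, and Flt4 is on this list alone. The sum of all 6 was 3.09 to 7.14 FPKM in controls and 15.6 to 20.9 FPKM with alcohol, mostly through Lyve1 (means 0.478 and 10.3 FPKM). Ccl21a did not pass (means 2.29 and 1.38 FPKM), and Pdpn and Mmrn1, also on this list, were at or below 0.290 FPKM in every sample. The part of these cells in the Prox1 result was not tested. Prox1 overlaps the antisense gene Prox1os (9.09 and 13.3 FPKM as group means), and the sources do not say whether strand was used in counting, so some of its reads are uncertain. Cebpa and Cebpb also overlap genes on the other strand (Gm45091 and Tmem189), and Onecut1 one on its own strand (Gm20649).

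The promoter sequences of the 3 factors that passed are printed because all 3 hold the TATA letters near the start site, and that of Foxa2 because it holds a match to the Onecut1 motif. Each is the 250 bases before the start site in RefSeq on GRCm38.p6, 5′ to 3′ on the gene's strand, with motif matches in capitals.
Cebpa, chr7:35119043-35119292, plus strand: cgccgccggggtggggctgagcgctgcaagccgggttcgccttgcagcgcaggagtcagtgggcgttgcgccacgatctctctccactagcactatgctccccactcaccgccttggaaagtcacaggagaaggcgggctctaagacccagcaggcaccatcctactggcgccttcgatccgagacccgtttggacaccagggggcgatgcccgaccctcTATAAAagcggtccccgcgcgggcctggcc
Foxa3, chr7:19023540-19023789, minus strand: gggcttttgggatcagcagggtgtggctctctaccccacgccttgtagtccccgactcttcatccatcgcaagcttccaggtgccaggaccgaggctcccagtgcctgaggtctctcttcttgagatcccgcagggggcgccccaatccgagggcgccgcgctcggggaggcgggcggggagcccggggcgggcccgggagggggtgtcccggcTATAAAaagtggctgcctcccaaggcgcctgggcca
Prox1, chr1:190170828-190171077, minus strand: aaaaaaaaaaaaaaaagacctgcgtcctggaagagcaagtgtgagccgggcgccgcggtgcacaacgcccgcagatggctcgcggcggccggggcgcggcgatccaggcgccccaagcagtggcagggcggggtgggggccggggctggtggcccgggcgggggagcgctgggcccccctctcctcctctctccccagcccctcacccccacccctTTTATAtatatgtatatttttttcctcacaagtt
Foxa2, chr2:148046970-148047219, minus strand: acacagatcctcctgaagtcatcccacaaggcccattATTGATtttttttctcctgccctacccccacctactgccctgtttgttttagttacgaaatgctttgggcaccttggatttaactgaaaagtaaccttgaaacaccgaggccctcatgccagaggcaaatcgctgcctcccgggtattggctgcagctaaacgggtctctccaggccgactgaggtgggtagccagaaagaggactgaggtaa
The capitals mark TATAAA in Cebpa and Foxa3 and, in Prox1, its reverse complement, beginning 30, 36 and 34 bases before the start site. In Foxa2 they mark the ONECUT motif, beginning 213 bases before it. The letters searched on both strands were ATTGAT for ONECUT factors, TGTTTNC for FOXA, TTGCNNAA for C/EBP, CAAAGTCCA for HNF4A, TTCNNNGAA for STAT5 and TATAAA for the TATA box. Of 32851 RefSeq windows of the same length 12.4% hold the TATA letters, 6.72% those of ONECUT, 17.8% those of FOXA, 9.56% those of C/EBP, 7.02% those of STAT5 and 0.384% those of HNF4A. These shares count a match on either strand anywhere in the window. The share of windows with the TATA letters near the start site was not computed, and a link to the change with alcohol was not tested. The lower-case letters hold none of these motifs, which says only that they are not in these windows. All 9 genes matched RefSeq, with 13 windows. Among those not printed, the upstream window of Hnf4a holds the ONECUT and FOXA motifs, that of Foxa1 and the inner one of Prox1 the FOXA motif and the innermost of Foxa2 the TATA letters, while those of Cebpb, Onecut1 and Hhex hold none.

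Hnf4a, the nuclear receptor of the network, was among the most abundant members and did not pass. It stood at 128, 88.2, 98.4 and 105 FPKM in controls and 126, 107, 168 and 103 FPKM with alcohol. Alcohol replicate 3 was the only alcohol sample above all controls. The log2 difference was 0.25 ± 0.17 (SE; 95% interval -0.12 to 0.62, limma adjusted p = 0.228), beside 0.24 for the median tested gene. It was 0.10 without alcohol replicate 3 and -0.05 with median-of-ratios scaling. The gene has 2 RefSeq start sites, at 163506857 and 163547155 on chromosome 2 of GRCm38.p6, and the deposited value does not separate their transcripts. Relative to Hnf4a, Cebpa was lower in every alcohol sample, at 0.561 to 1.15 against 1.27 to 1.78 in controls, and Prox1 was higher, at 0.110 to 0.199 against 0.0544 to 0.1002. The ratios of Foxa1, Foxa2, Foxa3, Cebpb, Onecut1 and Hhex to Hnf4a overlapped between the groups. None of these ratios has a test.

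**Figure D3:**
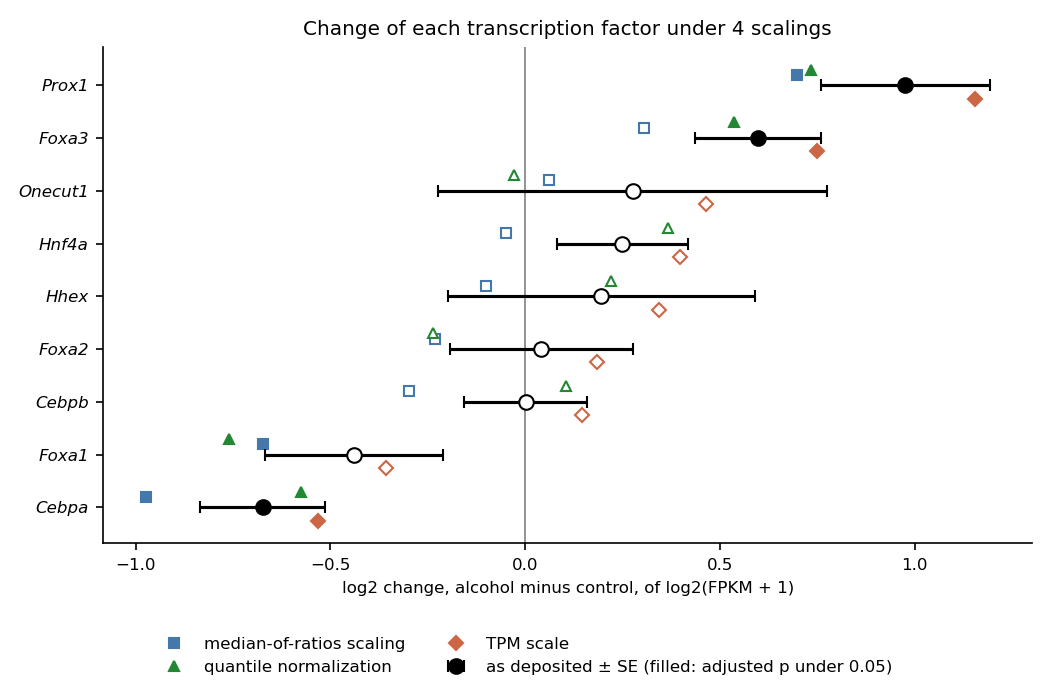
Log2 change (x axis, alcohol minus control, of log2(FPKM + 1)) of the 9 factors (y axis) as deposited, with its standard error, and under 3 other scalings, where filled symbols have a limma adjusted p under 0.05. Prox1 and Cebpa are filled under all 4 scalings, Foxa3 is open with median-of-ratios scaling, and Foxa1 is filled with median-of-ratios scaling and quantile normalization only.

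Onecut1, which encodes HNF6, and Hhex, a homeobox factor of hepatocytes and endothelium, differed more between replicates than between groups. Onecut1 stood at 8.05, 0.766, 4.84 and 1.36 FPKM in controls and 6.86, 1.74, 5.44 and 2.41 FPKM with alcohol. In both groups replicates 1 and 3 were high and replicates 2 and 4 low, with a 10.5-fold range among the controls. The lowest value rests on 48 reads, and its 95% Poisson interval of 0.565 to 1.02 FPKM, which covers counting error only, lies below all other samples. Hhex stood at 112, 34.2, 82.2 and 34.5 FPKM in controls and 99.0, 69.7, 38.3 and 71.9 FPKM with alcohol. Control replicates 1 and 3 were again the high ones, but alcohol replicate 3 was the lowest of its group. The log2 differences were 0.28 (95% interval -0.83 to 1.38, limma adjusted p = 0.654) for Onecut1 and 0.20 (-0.67 to 1.06, adjusted p = 0.687) for Hhex. Intervals of this width do not exclude a doubling of either transcript.

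The spread of these genes within groups was large beside that of other genes. The within-group SD on the log2(FPKM + 1) scale was 0.93 for Onecut1 and 0.73 for Hhex, at the 99.7 and 99.3 percentile of tested genes, whose median was 0.17. Foxa2 (0.42) and Foxa1 (0.41) also lay above 95% of tested genes. All 4 of these genes were higher in control replicates 1 and 3 than in control replicates 2 and 4. With alcohol only Onecut1 kept that order, Foxa1 and Foxa2 were highest in replicates 2 and 4, and Hhex in replicates 1 and 4. Cish, a STAT5 target and feedback inhibitor of growth hormone signalling that was chosen after its values were seen, stood at 18.3, 1.69, 11.2 and 1.32 FPKM in controls and 11.3, 4.45, 3.39 and 4.11 FPKM with alcohol. Its control replicates 1 and 3 were likewise high, and in the alcohol group it was highest in replicate 1 and lowest in replicate 3, as Hhex was. Gadd45g, a stress gene chosen in the same way, stood at 21.5, 5.36, 26.2 and 7.78 FPKM in controls and 20.2, 8.07, 15.2 and 7.62 FPKM with alcohol, so that replicates 1 and 3 were high in both groups, as for Onecut1. Socs2 and Myc were examined with them. Socs2, another STAT5 target, stood at 4.48, 0.924, 3.30 and 2.62 FPKM in controls and 2.15, 1.38, 1.56 and 1.49 FPKM with alcohol. Its replicates 1 and 3 were the highest in both groups, though with alcohol replicate 3 was barely above replicate 4. Myc, a growth factor-induced gene, stood at 14.8, 1.75, 10.05 and 2.15 FPKM in controls and 60.4, 26.2, 20.1 and 30.5 FPKM with alcohol. Its control replicates 1 and 3 were high, and with alcohol replicate 1 was highest and replicate 3 lowest, as for Hhex and Cish. Myc passed as higher with alcohol (limma adjusted p = 0.00353), as 44.2% of all tested genes did, while Cish, Gadd45g and Socs2 did not pass. The sources used here do not state the hour of collection or the feeding state of each replicate.

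**Figure D4:**
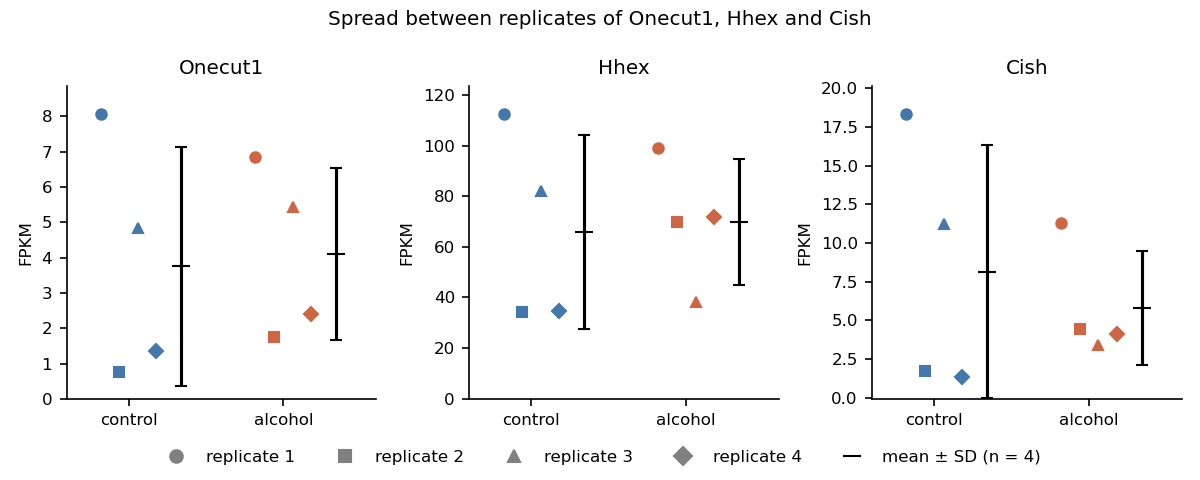
Level in FPKM (y axis, linear) of Onecut1, Hhex and Cish in every sample, with control samples in blue, alcohol samples in orange, marker shape for the replicate number and a bar for the mean ± SD of 4 samples. Control replicates 1 and 3 (circle and triangle) lie far above control replicates 2 and 4 in all 3 panels, for Cish at 18.3 and 11.2 against 1.69 and 1.32 FPKM.

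By level per length, the controls ordered the factors as Cebpa, Hnf4a, Cebpb, Hhex, Foxa3, Foxa2, Prox1, Foxa1 and Onecut1, from a mean of 162 to 3.75 FPKM. Only the steps from Cebpa to Hnf4a and from Foxa3 to Foxa2 separated neighbours whose ranges did not overlap. With alcohol the order was Hnf4a, Cebpa, Cebpb, Hhex, Foxa3, Prox1, Foxa2, Onecut1 and Foxa1, from 126 to 3.14 FPKM. There the ranges of Hnf4a and Cebpa overlapped, Hnf4a was above Cebpa in only 2 of 4 samples, and the ranges of Foxa3, Prox1, Foxa2 and Onecut1 stood clear of one another in that order. Leaving out predicted and unnamed genes, the genes whose log2 level followed a member most closely over the 8 samples were Fkbp4 for Cebpa (Pearson r = 0.988), Nat10 for Prox1 (0.988), Cd14 for Foxa3 (0.985), Actn4 for Hnf4a (0.972), Plbd2 for Onecut1 (0.959), Sec24a for Cebpb (0.937), Bach1 for Hhex (0.933), Wdr1 for Foxa1 (0.911) and Tmem184b for Foxa2 (0.909). Each is the highest among the remaining tested genes over 8 samples that form 2 groups, and is a description with no test.

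Among 29 tested genes of a list of other liver transcription factors and their partners 15 rose, 3 fell and 11 did not pass (10 to 18 rose and 3 to 6 fell over median-of-ratios scaling, quantile normalization and the TPM scale, and 8 rose with a minimum of 5 FPKM), with a median log2 change of 0.40 beside 0.24 for all tested genes. In the main fit 44.2% of all tested genes were higher and 13.0% lower, so the main counts are near the background. The background under the other scalings is given with the HNF4A targets below. Nr0b2, the repressor SHP that bile acids induce, fell from 22.6 ± 14.4 to 2.82 ± 2.03 FPKM and was named after its values were seen. Ddit3, Dbp, Cebpg and Atf4, the genes of smallest p, encode basic leucine zipper proteins. Ddit3, the C/EBP partner CHOP that blocks C/EBP binding, went from 1.16 to 1.58 FPKM in controls to 22.3 to 48.1 FPKM (log2 change 3.67, limma adjusted p = 6.45e-07). Cebpg, a C/EBP without an activation domain, rose from 9.83 ± 1.80 to 29.1 ± 3.27 FPKM, and its partner Atf4, the effector of the integrated stress response, from 35.5 ± 4.46 to 94.3 ± 15.1 FPKM. Nfil3, a repressor, rose from 3.29 ± 1.24 to 15.1 ± 6.59 FPKM (12.4, 10.9 and 12.1 FPKM in alcohol replicates 2 to 4 and 24.9 FPKM in replicate 1), and Dbp, an activator that binds the same sites, fell from 52.3 ± 9.49 to 13.6 ± 0.959 FPKM. Cebpd (4.57 ± 0.615 and 6.44 ± 1.83 FPKM) and Cebpe (3.69 ± 0.615 and 3.26 ± 0.560 FPKM) did not pass, so of the C/EBP genes named here Cebpa was the member that fell and Cebpg, with the family's dimer partner Ddit3, the one that rose. Cebpd and Cebpe were named after their values were seen.

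Gata4, whose product acts with FOXA factors in liver specification, rose from 2.08 ± 0.534 to 5.31 ± 0.789 FPKM, and its relative Gata6 from 1.52 ± 0.356 to 4.02 ± 0.733 FPKM. Zhx2, a repressor of fetal liver genes, rose from 1.79 ± 0.558 to 4.00 ± 0.522 FPKM. The groups did not overlap for these 3 genes, which were named for their small p. Of all tested genes 39.5% were higher without overlap. GATA4 is also made by sinusoidal endothelial and stellate cells, whose marker sums, given above, were higher in the same samples, and their part in the result was not tested.

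**Figure D5:**
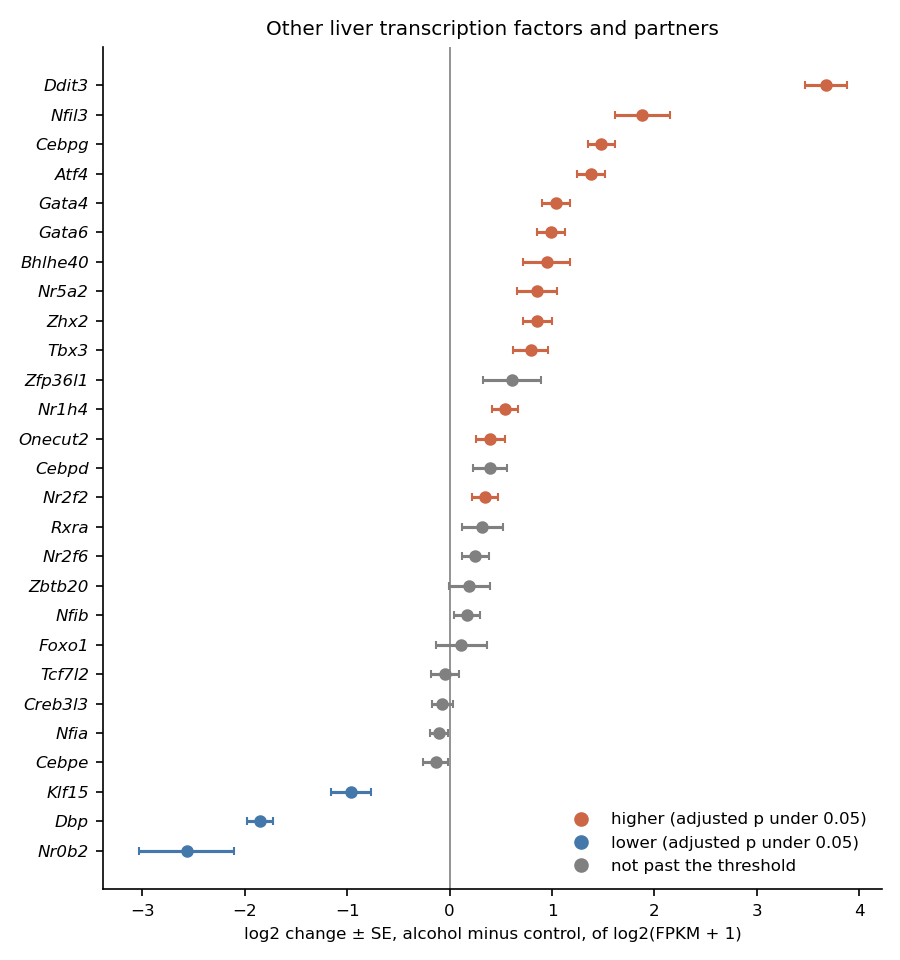
Log2 change with its standard error (x axis, alcohol minus control, of log2(FPKM + 1)) of tested genes (y axis) of the list of other liver transcription factors and partners, apart from those not reported here, coloured by limma adjusted p under 0.05. Ddit3 lies farthest to the right at 3.67, and Nr0b2, Dbp and Klf15 are the 3 that fell.

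Genes described as targets of these factors moved both ways. Over all tested genes, the background for the main counts, 44.2% were higher and 13.0% lower. Other settings have another background. Of the 9228 genes, 2386 were higher and 2446 lower with median-of-ratios scaling, and 2221 and 2307 with quantile normalization. On the TPM scale 4867 were higher and 814 lower, and with no expression minimum 5101 and 1345 of 21049 genes. Of 32 described HNF4A targets 6 rose and 10 fell, with a median log2 change of -0.16 beside 0.24 for all tested genes (2 to 9 rose and 9 to 14 fell over the other scalings, and 6 rose and 6 fell with no expression minimum). The falls with the smallest p were Otc, the urea cycle enzyme, from 132 ± 13.4 to 56.8 ± 6.27 FPKM, Gys2, liver glycogen synthase, from 148 ± 16.0 to 70.8 ± 7.20 FPKM, Pck1, the gluconeogenic enzyme, from 1181 ± 154 to 381 ± 142 FPKM, and Cideb, which loads lipid onto lipoproteins, from 261 ± 34.2 to 156 ± 18.7 FPKM (SD, n = 4 per group). Of 22 described C/EBP targets 4 rose and 6 fell, with a median of -0.21 (2 to 5 rose and 5 to 8 fell over the other scalings, and 2 rose and 3 fell with no expression minimum). Otc, Gys2 and Pck1 belong to this list too, and Tat, the tyrosine aminotransferase, rose from 373 ± 90.0 to 909 ± 279 FPKM. Of these C/EBP targets 2 rose without control replicate 2, 3 or 4 or without alcohol replicate 1 or 3, and 10 fell without alcohol replicate 1. In the alcohol group that sample was highest in some of these targets and lowest in others. Saa1 stood there at 520 FPKM, inside the control range of 54.8 to 832 FPKM. The other alcohol samples held 5.53 to 10.5 FPKM, below every control, and Saa1 passed as lower (limma adjusted p = 0.0404). Fgb stood there at 4183 FPKM, against 1510 to 1580 FPKM in the other alcohol samples and 2367 to 3064 FPKM in controls. Pck1 stood there at 272 FPKM, against 313 to 589 FPKM in the other alcohol samples and 971 to 1316 FPKM in controls. The reason for the change in the count was not tested.

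Of 14 described FOXA targets 6 rose and 4 fell, with a median of 0.24 (4 to 7 rose and 4 fell over the other scalings, and 4 rose and 2 fell with no expression minimum). The background of the main fit is again 44.2% higher and 13.0% lower of all tested genes, and that of the other settings is given above. Igfbp1, a secreted binder of insulin-like growth factors, rose from 38.2 ± 8.27 to 696 ± 133 FPKM. The export pumps Abcc3, from 22.9 ± 6.79 to 65.0 ± 3.79 FPKM, and Abcc2, from 26.8 ± 11.7 to 72.0 ± 9.87 FPKM, rose as well, and Pck1 is on this list too. The lists share genes and are not independent of one another.

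Of 19 plasma proteins made by hepatocytes 2 rose, 4 fell and 13 did not pass, where 44.2% of all tested genes were higher and 13.0% lower. The list's median log2 change was -0.14, beside 0.24 for all tested genes. The other scalings gave 1 to 4 higher and 2 to 9 lower, and having no expression minimum ended both higher calls in limma and left 2 lower. The background under these settings is given with the HNF4A targets. Without control replicate 2, 3 or 4 or alcohol replicate 1 or 3, 1 rose, and without control replicate 4 or alcohol replicate 3, 2 fell. The fetuin Ahsg rose from 6102 ± 481 to 10513 ± 853 FPKM. Ttr, the thyroid hormone carrier, fell from 5513 ± 1116 to 3468 ± 258 FPKM, vitronectin (Vtn) from 1764 ± 313 to 1182 ± 22.2 FPKM and Ambp, the bikunin precursor, from 1802 ± 278 to 1308 ± 84.6 FPKM. The Ambp call was lost on the TPM scale (limma adjusted p = 0.0802), without control replicate 4 (0.0666) and without alcohol replicate 3 (0.0566). The calls of Ahsg, Ttr and Ambp were lost with no expression minimum. Among genes of fetal liver, Afp, the fetal albumin, had a mean of 0.617 FPKM in controls and 0.704 FPKM with alcohol, and Dlk1, Igf2bp1 and Igf2bp3 lay near 0 in both groups. On the same list, means were higher with alcohol for Sox4 (0.125 and 0.489 FPKM), Sox9 (0.465 and 1.06 FPKM) and Epcam (0.352 and 0.772 FPKM). The mean of Krt19 was lower (0.722 and 0.473 FPKM). These genes lay under the expression minimum and were not tested.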

How the data were processed

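The authors deposited FPKM values, 1 column per sample and 1 row per gene symbol, per the labels; the submitters' processing notes name GRCm38 and mm10, while aligner, counter, annotation and use of strand were not stated in the sources used here. RNA came off a column kit and went into SMARTER mRNA libraries, per the labels' protocols. All 8 columns were used, matched to samples by library name. The members and gene lists were chosen with earlier results of these data known.

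Alcohol was compared with control by limma (3.58.1, under R 4.3.3), fitted to log2(FPKM + 1) of 9228 genes averaging 1 FPKM or more, with a group term, a variance trend and Benjamini-Hochberg adjustment over all tested genes (threshold 0.05). Intervals on log2 changes are at 95%. The fit was tested on simulated data. Each member also had an exact permutation test, 2-sided, over all 70 assignments. A log2 change on this scale understates that of low genes.

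FPKM values were turned back into whole reads: with a library total and the smallest gene length that fit, 21036 of 21049 genes (99.94%) gave whole numbers in all samples to 1e-06 of a read, and these genes held 99.80% to 99.92% of each total. The reads served for depth, Poisson intervals and 1 alternative. Alternatives were another pseudocount (0.1), no minimum or 5 FPKM, 3 scalings, weights from reads, the replicate number as a block, leaving out each sample, and alcohol replicates 2 and 4 as 1 sample, since these were the most alike pair (chi-square per gene 10.1, next lowest 56.6).

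Named genes were all members, up to 8 genes of the list of other factors and up to 4 of each other list by smallest p among those passing (the 2 most abundant where none passed), the most abundant marker of a cell type, and the most alike named gene of each member; other names were chosen after their values were seen. Some listed genes are counted with their lists but not reported here by name. Positions come from GENCODE M21 and promoters from RefSeq, where all 9 members matched by symbol.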

Additional observations from a re-analysis of the deposited data

Results flagged for a closer look

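Among 88 groups of 4 samples (30 genes and 14 ratios in both groups), 4 held a sample whose gap to its nearest neighbour was a larger share of the group's whole range than Dixon's 95% critical value, and chance alone flags about 1 in 20 groups. Foxa3 in alcohol replicate 3 stood at 34.55 FPKM, below the next alcohol sample at 49.56 FPKM. In alcohol replicate 1, Ddit3 stood at 48.14 FPKM above the next at 26.01 FPKM, and Nfil3 at 24.92 FPKM above the next at 12.44 FPKM. Abcc2 in control replicate 1 stood at 44.26 FPKM above the next at 22.38 FPKM.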

How the results depend on the processing

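Prox1 and Cebpa kept their direction and their call in all 17 alternatives, and Foxa3 in 16 of 17. The planned count-model tests were not run because the deposited unit is FPKM, and voom weights on recovered reads, chosen after seeing the data together with the merging of alcohol replicates 2 and 4, took their place. With median-of-ratios scaling 2386 genes were higher and 2446 lower, 1 member was higher (Prox1) and 2 lower (Cebpa, and Foxa1 at -0.67), Foxa3 stood at 0.30 without passing, and the differences of Hnf4a (-0.0503), Foxa2 (-0.23), Cebpb (-0.30) and Hhex (-0.10) changed sign. With quantile normalization 2221 genes were higher and 2307 lower, 2 members were lower (Foxa1 at -0.76), and Foxa2 (-0.24) and Onecut1 (-0.028) changed sign. With a minimum of 5 FPKM, which tests fewer genes and leaves out Foxa1 and Onecut1, 1981 genes were higher. The cause of the other shifts was not tested.

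Leaving out 1 sample at a time gave 3537 to 4362 genes higher and 1000 to 1278 lower, 2 members higher each time and 1 to 2 lower. The second was Foxa1 at -0.61 without control replicate 2 (range -0.61 to -0.25). The ranges were 0.10 to 0.35 for Hnf4a (0.10 without alcohol replicate 3) and -0.12 to 0.22 for Foxa2 (-0.12 without control replicate 2, -0.12 without control replicate 4, -0.0041 without alcohol replicate 2 and -0.0076 without alcohol replicate 4, against -0.0058 with these 2 as 1 sample). They were -0.11 to 0.0931 for Cebpb (-0.04 without control replicate 1, -0.04 without control replicate 3, -0.11 without alcohol replicate 1 and -0.07 without alcohol replicate 3), -0.10 to 0.69 for Onecut1 (-0.10 without control replicate 2) and -0.0498 to 0.51 for Hhex (-0.0498 without control replicate 2, -0.04 without control replicate 4).

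With the replicate number as a block 4307 genes were higher and 1380 lower, and the calls of the members were the same; for Onecut1 the adjusted p was 0.119, against 0.654 without it. The deviations of same-numbered samples from their group means correlated across genes at 0.349, 0.216, 0.0706 and 0.28 for numbers 1 to 4, and not every sample correlated best with its own number. Reruns of the other named genes kept direction and call 347 times and lost the call 6 times. Of the list counts 169 stayed within 1.5 times and 35 did not. Onecut1 is the member that depth limits most, with 48 to 511 reads per library.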
